A study of Mus musculus with 2 samples.

Results

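Transcripts of the proximal T cell receptor signalling machinery and of its brakes were compared between naive CD8+ T cells and CD8+ T cells 72 h after activation. The members were 50 genes listed by name, from the receptor chains to the kinases, adaptors and enzymes next to them and the phosphatases, ligases and other proteins that restrain them. A probe set was counted when the platform annotation gave it a single gene and that gene was listed. This found 49 of the 50 genes, among 18193 genes with such a probe set, and 109 probe sets in all. Lck was not analysed here.

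The series accompanies work on imaging immune activation with a labelled deoxycytidine analogue, and its arrays set resting against proliferating cells. Both groups came from pmel-1 mice, whose transgenic T cell receptor recognises a melanocyte antigen. The naive group was purified resting cells and the activated group was proliferating cells. The sources used here do not give the activating stimulus, the strain background or the age of the animals. The RNA of 4 independent experiments was pooled for each group and hybridised to 1 whole-genome mouse array, so that no value has a replicate error and no difference a test. In pooled bulk RNA, fewer cells of a type and less RNA per cell cannot be told apart.

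When the receptor binds its ligand, Lck and Fyn phosphorylate the CD3 and zeta chains, and Zap70 docks there and phosphorylates the adaptors LAT and SLP-76. On these adaptors assemble Tec-family kinases, Vav exchange factors and phospholipase C gamma, whose product diacylglycerol recruits RasGRP and protein kinase C theta. The brakes act at each step: Csk and the phosphatases hold Src-family kinases back, Cbl ligases and Src-like adaptors remove receptor chains, and diacylglycerol kinases consume the lipid messenger. By these textbook roles the listed genes were sorted into 27 for positive signalling, 15 brakes and 8 of mixed or unsettled role.

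Values are deposited intensities in arbitrary units on a linear scale, the naive array first and the activated array second throughout. The brightest probe set of a gene, by the mean of its 2 values, stood for the gene, which counted as measured when either value reached 100. It passed the size rule when the arrays differed at least 1.4-fold, with values under 100 raised to 100, and by more than 100. All 49 genes were measured, and 97 of their 109 probe sets.

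Both sides of the pathway were mostly lower in activated cells. Of the 49 genes 29 were lower (59.2%) and 2 were higher, whereas over all 9842 measured genes 20.6% were lower and 23.7% higher. Among measured genes reaching 500 on either array, 26.2% were lower and 32.6% higher, against 28 and 2 of the 45 listed genes at that level. A difference of at least 2-fold was found for 14 listed genes in the lower direction and for 0 in the higher direction, beside 9.19% and 12.1% of all measured genes. The median log2 ratio of activated over naive cells was -0.59 for the listed genes and 0.01 for all measured genes.

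Positive signalling genes and brakes were both mostly lower. The number of lower positive genes depended on the scaling, and that of lower brakes did not. Of 26 measured positive genes, 16 were lower (61.5%) and 1, Malt1, was higher. Of 15 brakes, 9 were lower (60.0%) and 0 higher. After quantile normalization 19 positive genes and 9 brakes were lower, and with the probe sets of each gene combined 17 and 8. The median log2 ratio was -0.73 for positive genes and -0.52 for brakes, a difference of 0.21. No test of that difference was possible with 1 array per group. Ratios below 0, past the rule or not, were found for 22 of the 26 positive genes (84.6%) and 10 of the brakes (66.7%). Over all measured genes that share was 49.3%. Of the 8 genes of mixed role 4 were lower and 1, Sh2d2a, was higher, with a median of -0.25.

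**Figure D1:**
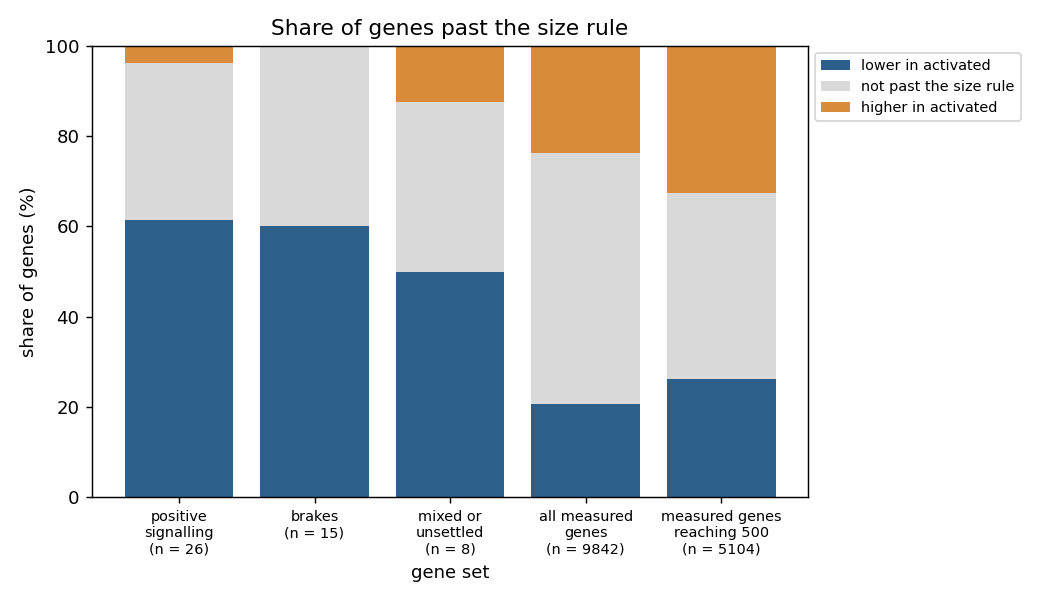
Share of genes (%) lower, higher or not past the size rule in activated against naive cells, for the 3 role classes and, as background, for all 9842 measured genes and the 5104 of them reaching 500. The lower share is 61.5% for positive signalling and 60.0% for brakes, above the 20.6% of all measured genes, and it rests on 1 array per group.

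The greatest differences were spread over the classes as well. Of the listed genes, 9 lay in the lowest 5% of log2 ratios of measured genes and 0 in the highest 10%. They were the 5 positive genes Txk, Tec, Fyb, Grap2 and Plcg1, the 3 brakes Sit1, Pag1 and Dgka, and Trat1 from the mixed class.

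**Figure D2:**
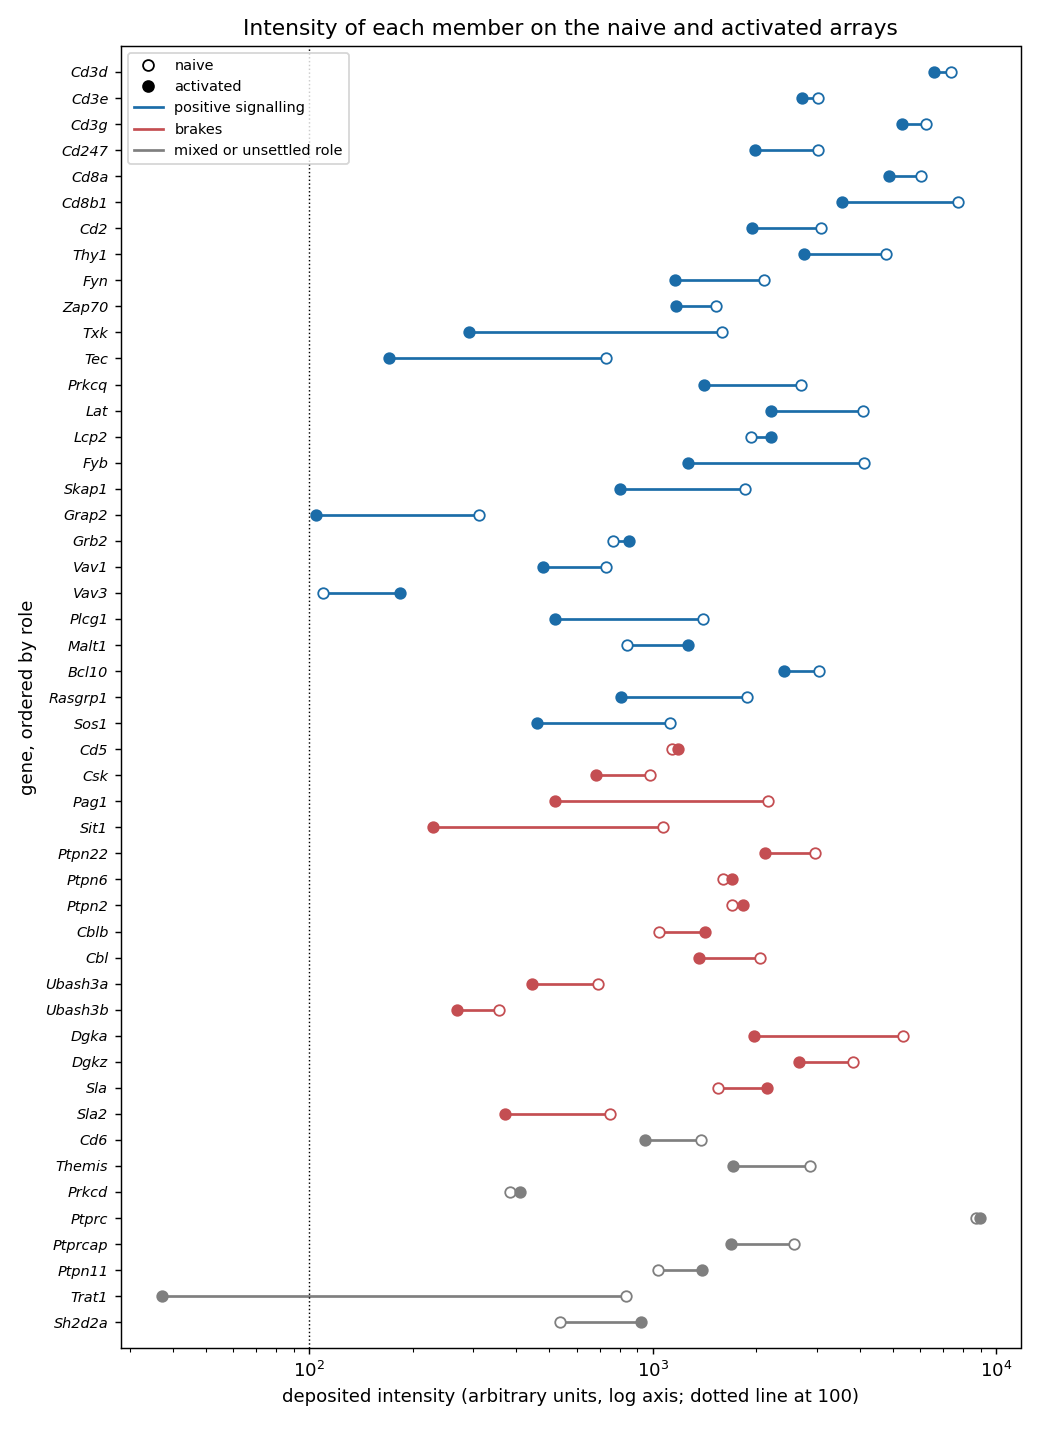
Deposited intensity (arbitrary units, log axis) of each of the 49 genes on the naive array (open circles) and the activated array (filled circles), 1 array each, ordered by role and coloured by class. Most filled circles lie to the left of the open ones, and the activated value of Trat1 alone lies under the dotted line at 100.

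The upstream sequences of the 3 genes with the lowest ratios that have a single promoter entry (Trat1, Sit1 and Tec) are shown with those of Cd3d and Cd3g, a pair that did not pass the size rule under the deposited scaling. They are the 250 bases before the start site on the gene's own strand, 5′ to 3′, from RefSeq on GRCm38.p6. Capitals mark matches, on either strand, to 3 short motifs: an ETS core (AGGAAG), a RUNX core (TGTGGT) and an E-box (CANCTG). The windows are chr16:48772063-48772312 (minus strand) for Trat1, chr4:43483710-43483959 (minus) for Sit1, chr5:72868449-72868698 (minus) for Tec, chr9:44981536-44981785 (plus) for Cd3d and chr9:44980432-44980681 (minus) for Cd3g.
Trat1: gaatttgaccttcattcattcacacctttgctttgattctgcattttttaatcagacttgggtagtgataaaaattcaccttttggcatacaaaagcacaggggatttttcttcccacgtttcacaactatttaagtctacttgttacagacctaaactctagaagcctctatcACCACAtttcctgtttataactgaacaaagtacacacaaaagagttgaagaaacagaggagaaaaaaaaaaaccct
Sit1: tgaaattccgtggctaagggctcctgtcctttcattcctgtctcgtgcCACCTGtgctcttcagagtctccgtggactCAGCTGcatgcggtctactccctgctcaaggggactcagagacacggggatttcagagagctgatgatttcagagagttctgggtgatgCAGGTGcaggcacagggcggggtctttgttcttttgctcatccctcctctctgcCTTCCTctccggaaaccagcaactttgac
Tec: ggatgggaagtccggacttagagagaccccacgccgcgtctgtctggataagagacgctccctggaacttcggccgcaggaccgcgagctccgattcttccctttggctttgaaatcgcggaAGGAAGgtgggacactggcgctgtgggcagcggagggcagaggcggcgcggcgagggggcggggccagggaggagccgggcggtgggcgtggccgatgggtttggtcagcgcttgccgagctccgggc
Cd3d: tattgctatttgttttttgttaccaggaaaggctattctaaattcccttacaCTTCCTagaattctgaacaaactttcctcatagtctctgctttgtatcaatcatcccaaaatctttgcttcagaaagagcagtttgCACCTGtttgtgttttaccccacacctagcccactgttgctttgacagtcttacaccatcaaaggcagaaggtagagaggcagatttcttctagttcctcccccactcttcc
Cd3g: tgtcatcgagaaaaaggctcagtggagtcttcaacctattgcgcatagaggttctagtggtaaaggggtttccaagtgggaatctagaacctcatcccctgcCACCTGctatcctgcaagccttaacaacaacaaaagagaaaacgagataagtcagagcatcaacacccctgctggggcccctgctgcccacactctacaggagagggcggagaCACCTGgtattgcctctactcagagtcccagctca

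Trat1 held 1 RUNX match, Sit1 held 1 ETS and 3 E-box matches, Tec held 1 ETS match, Cd3d held 1 ETS and 1 E-box match, and Cd3g held 2 E-box matches. The Cd3d and Cd3g start sites face away from each other and lie 1355 bases apart. Promoters of 38 of the measured listed genes were at hand, and the first entry of each was searched on both strands. An ETS match was found in 20 of 38 (52.6%), beside 29.2% of 27025 genes with a promoter entry. It was found in 9 of the 22 lower genes and 11 of the 16 others. The E-box was found in 20 of 38 (52.6%, beside 44.5%) and the RUNX core in 3 (7.89%, beside 14.2%). The AP-1 motif TGANTCA matched 0 of 38 (6.87% of all) and the FOXO motif TGTTTAC 1 (3.09%). A match describes the letters of the window and not a bound site.

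Under the deposited scaling the receptor and coreceptor chains had a median log2 ratio of -0.27, nearer to 0 than the -0.73 of all positive genes. The CD3 chains, which carry the receptor's signal into the cell, were at 7378 and 6597 for Cd3d, 3035 and 2724 for Cd3e, and 6261 and 5323 for Cd3g. Their log2 ratios of -0.16, -0.16 and -0.23 did not pass the size rule, although Cd3d and Cd3g passed it downwards after quantile normalization. That scaling brought the ratios to -0.49, -0.29 and -0.57, and the median of all positive genes to -0.85. These 3 genes are neighbours on chromosome 9 in RefSeq. Cd247, which encodes the zeta chain with the most activation motifs of the complex, was at 3036 and 1984 (1.53-fold lower). Its 3 measured probe sets all passed in the lower direction, with log2 ratios of -0.54, -0.61 and, as a bound because the activated value lay under 100, at most -1.69.

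The coreceptor chains, neighbours on chromosome 6, went apart by their representative probe sets. Cd8b1, the beta chain that strengthens binding to class I MHC, was at 7725 and 3554 (2.17-fold lower). Cd8a, the alpha chain that binds Lck, was at 6020.4 and 4860.0 and did not pass at 1.24-fold, although it did so, downwards, under quantile and loess scaling. Its other 4 probe sets did pass, with log2 ratios from -1.39 to -0.56, and a ratio taken as the median of its probe sets was -0.89, beside -1.12 for Cd8b1. All 6 receptor and coreceptor genes had ratios below 0, also under each of the 3 other scalings tried. Cd2, an adhesion receptor that lowers the threshold for signalling, was at 3080.05 and 1943 (1.58-fold lower). Thy1, a glycolipid-anchored surface protein, was at 4763 and 2751 (1.73-fold lower).

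Among kinases the Tec family differed most. Txk, a Tec-family kinase expressed in resting T cells, was at 1587 and 291 (5.45-fold lower), and Tec was at 730.4 and 171 (4.28-fold lower). The 2 genes are neighbours on chromosome 5, and each was measured by 1 probe set. Fyn, a Src-family kinase that works beside Lck, was at 2110.1 and 1156 (1.82-fold lower), with log2 ratios of -0.87 and -0.88 at its 2 probe sets. Prkcq, protein kinase C theta, which relays diacylglycerol towards NF-kappaB, was at 2698 and 1413 (1.91-fold lower). Zap70, the kinase that docks on the phosphorylated chains, was at 1524 and 1171 and passed at none of 3 probe sets. Thus 4 of these 5 genes were lower, beside 20.6% of all measured genes.

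The adaptors split into a larger lower group and 2 that did not pass. Fyb (ADAP), which links the receptor to integrin adhesion, was at 4110.2 and 1267 (3.25-fold lower). Skap1, its binding partner on the same route, was at 1861 and 801 (2.32-fold lower). Every measured probe set of both genes was lower, between -2.08 and -0.67 on the log2 scale. Lat, the membrane scaffold on which the complex is built, was at 4081 and 2214 (1.84-fold lower). Grap2 (GADS), the bridge between LAT and SLP-76, was at 312 and 105 (2.98-fold lower), its activated value lying just above the floor of 100. Its log2 ratio of -1.58 shrank to -0.64 with a floor of 200 and to -0.79 with its probe sets combined, the second being at 100.49 and 58.4. Lcp2, which encodes SLP-76 itself, was at 1938 and 2216 and did not pass. Grb2, the widely expressed relative of GADS, was at 767 and 849.99 (log2 0.15), although its other probe set was lower at 694 and 448.

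Downstream of the adaptors, several genes of the diacylglycerol route were lower, on the side that makes and senses the lipid as well as on the side that removes it. Plcg1, phospholipase C gamma, was at 1395 and 521 (2.68-fold lower). Rasgrp1, the Ras exchange factor recruited by diacylglycerol, was at 1875 and 806 (2.33-fold lower), and all 4 of its probe sets passed. Of the protein kinases C that sense the lipid, Prkcq was lower, as given above, and Prkcd was not (383 and 409.7). Dgka and Dgkz, the kinases that convert diacylglycerol to phosphatidic acid, were at 5352 and 1974 (2.71-fold lower) and at 3828 and 2659 (1.44-fold lower). Dgkz did not pass by the mean of its 2 probe sets. A relative outside the list, Dgkh, was higher (103 and 481). The grouping by this lipid was chosen after the values were seen.

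The other downstream genes went both ways. Sos1, a Ras exchange factor carried by GRB2, was at 1124 and 460.1 (2.44-fold lower), while its 2 dimmer measured probe sets gave log2 ratios of at most -0.47 and of 0.03. Vav1, the main Vav exchange factor of T cells, was at 733 and 478 (1.53-fold lower). Vav3, its relative, was at 109.7 and 183.5, a 1.67-fold ratio that the rule's difference minimum of 100 left out. Malt1, the protease of the complex that activates NF-kappaB, was at 839 and 1269 (1.51-fold higher), the sole positive gene past the rule in that direction. Its other 2 probe sets gave 0.18 and 0.23 on the log2 scale and did not pass, nor did the mean of the 3. Bcl10, its partner in that complex, was at 3053 and 2413 at a probe set that can cross-hybridise by its suffix. The other 3 probe sets of Bcl10, among them another with that suffix, gave log2 ratios from 0.01 to 0.23, and none passed. Under loess scaling Bcl10 passed in the lower direction.

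Among the brakes at the membrane, 2 transmembrane adaptors had the lowest ratios of the class. Sit1, which recruits inhibitory partners through its tyrosine motifs, was at 1070.2 and 229 (4.68-fold lower). Pag1, the raft protein that holds Csk near Src-family kinases, was at 2161 and 519.9 (4.16-fold lower). Csk, which phosphorylates the inhibitory tyrosine of Lck and Fyn, was at 979 and 684 (1.43-fold lower). Cd5, a surface receptor that dampens signalling, was at 1138 and 1184 and did not pass. Each of these genes was measured by 1 probe set.

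The phosphatases differed little. Ptpn22, the partner of Csk, was at 2973 and 2117 (1.40-fold lower), the listed gene nearest to the fold minimum on its inner side, followed by Csk. Ptpn6 (SHP1), which is recruited to inhibitory receptors, was at 1604 and 1701. Ptpn2, which also restrains cytokine signalling, was at 1703 and 1834. All measured probe sets of Ptpn6 and Ptpn2 had log2 ratios between 0.08 and 0.21.

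Of the Cbl ligases and Src-like adaptors, Cbl and Sla2 were lower, whereas Cblb and Sla did not pass by their representative probe sets. Cbl, a ligase for activated receptors and kinases, was at 2048 and 1359 (1.51-fold lower), and its other 2 measured probe sets did not pass. Cblb, the relative best known for setting the threshold for activation, was at 1044 and 1421 (1.36-fold higher), just outside the rule. One of its other probe sets did pass, at 413 and 886 (2.14-fold higher), and so did the mean of its 3 probe sets. Sla2 was at 750.6 and 370.3 (2.03-fold lower), and both its probe sets passed. Sla, which with Cbl lowers the receptor at the surface, was at 1546 and 2156 (1.39-fold higher), also just outside.

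Of the listed genes, only Sla had 1 probe set past the rule upwards and another past it downwards. These were at 956 and 1550 (log2 0.70) and at 204 and 95.5 (at most -1.03), and a further one gave 0.10. Of the Ubash3 pair, which restrain Zap70 and Syk, Ubash3a was at 694 and 446 (1.56-fold lower). Ubash3b was at 357 and 269 and did not pass, and the log2 ratios of its probe sets ran from -0.41 to 0.28.

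Genes of mixed or unsettled role ranged from the lowest ratio of the 49, that of Trat1, to that of Sh2d2a, the highest under the deposited scaling. Under quantile and loess scaling Vav3 exceeded it (0.80 against 0.67 and 0.81 against 0.70). Trat1 (TRIM), a transmembrane adaptor tied to the receptor complex, was at 837 and 37.2 (at least 8.37-fold lower, since the activated value lay under 100). Its second probe set was at least 1.64-fold lower. Sh2d2a (TSAd), an adaptor that binds Lck and appears on activation, was at 537 and 922 (1.72-fold higher, 1 probe set). Themis, a GRB2-associated protein of T cells, was at 2871 and 1716 (1.67-fold lower), and none of its other 3 probe sets passed. Cd6, a surface receptor neighbouring Cd5 on chromosome 19, was at 1381 and 951 (1.45-fold lower).

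CD45 and its partner gave different ratios. Ptprc, which encodes CD45, the phosphatase that both primes and limits Lck, was at 8717 and 8945 by its representative probe set. A second, dimmer probe set was at 408 and 135 (3.02-fold lower). The exons that either covers were not analysed here. Ptprcap, the CD45-associated protein, was at 2583 and 1684 (1.53-fold lower). Ptpn11 (SHP2), a phosphatase with positive and negative roles, was at 1036 and 1393, and did not pass, and neither did Prkcd, protein kinase C delta.

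Probe sets of the same gene mostly pointed one way. Of the 28 listed genes with several measured probe sets, 21 had all ratios on one side of 0. The other 7 were Grb2, Bcl10, Sos1, Ubash3b, Sla, Prkcd and Ptprc. Of 14 genes that were lower by the representative and had another measured probe set, 8 were lower at every one: Cd247, Fyn, Fyb, Skap1, Vav1, Rasgrp1, Sla2 and Trat1. Probe sets share the same RNA and are not replicates.

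**Figure D3:**
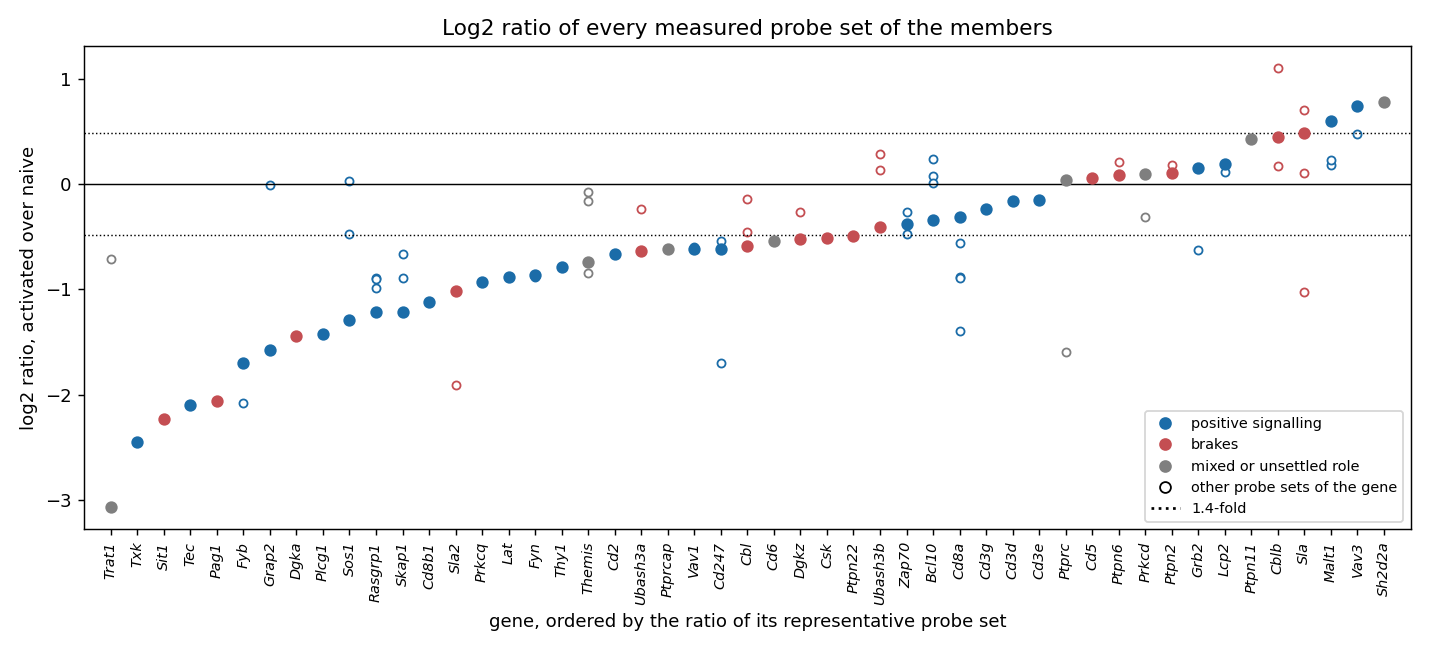
Log2 ratio of activated over naive for all 97 measured probe sets of the 49 genes, ordered by the representative probe set (filled) and coloured by class, with other probe sets of the gene as open circles and dotted lines at 1.4-fold. Positive genes and brakes are mixed along the axis from Txk and Sit1 up to Sla, the highest brake, with Malt1 and Vav3 above it. Trat1, Grap2, Sos1, Cd247, Cd8a, Ptprc and Sla, among others, have an open circle far from their filled one.

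Relatives within a family were also set side by side. For this, 11 pairs were formed after the values were seen, 8 of them within the list and 3 with Sos2, Dgkh or both Nck genes from outside it. In 6 of the 11 pairs the log2 ratios had opposite signs, under the deposited scaling and under each of the 3 others. Since 49.3% of all measured genes had a ratio below 0, such a share is near what any genes would give, and the pairs are given for their values alone. They were Vav1 and Vav3 (-0.62 and 0.74), Cbl and Cblb (-0.59 and 0.45), Sla2 and Sla (-1.02 and 0.48), Sos1 and Sos2 (-1.29 and 0.36), Grap2 and Grb2 (-1.58 and 0.15), and Dgka and Dgkh (-1.44 and 2.22). Of the genes on the positive side, Dgkh alone passed the size rule by its representative probe set. Another probe set of Grb2 and of Sla lay below 0, and the naive values of Vav3 and Dgkh lay just above the floor of 100. Txk and Tec, by contrast, differed by 0.35, and Ubash3a and Ubash3b by 0.23. Probe sets of the same gene had a standard deviation of 0.38, over 62 probe sets of 23 listed genes.

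**Figure D4:**
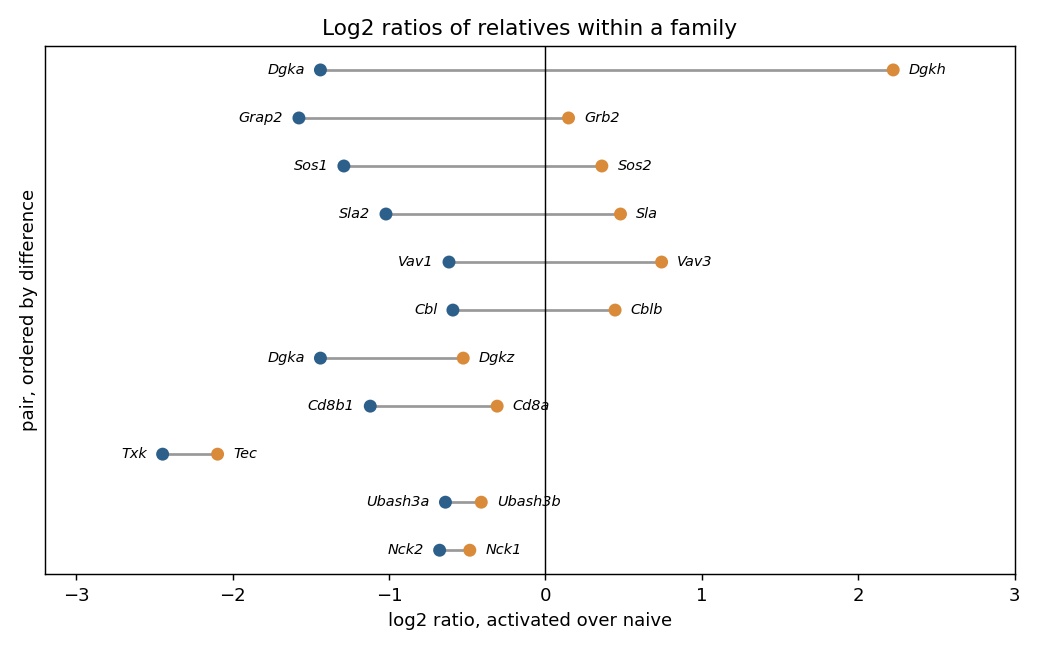
Log2 ratio of activated over naive for the members of 11 pairs of relatives, joined by a line and ordered by their difference, 1 representative probe set each. The line crosses 0 in 6 pairs, with Dgka at -1.44 and Dgkh at 2.22 farthest apart.

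Further genes of the same pathway, taken from a list of 35, also leaned to the lower side. Of 28 measured, 14 were lower and 2 higher, with a median log2 ratio of -0.50, and 4 lay under 100 on both arrays. The lowest were Rasal3, a Ras GTPase-activating protein, at 2259 and 643 (3.51-fold lower), and Itpkb, an inositol phosphate kinase needed for receptor signalling, at 1005 and 395 (2.55-fold lower). Dock2, a Rac exchange factor of lymphocytes, was at 2568 and 1079 (2.38-fold lower), and Lax1, a negatively acting membrane adaptor, at 329.8 and 141 (2.34-fold lower). The higher genes were Dgkh, a further diacylglycerol kinase, at 103 and 481 (4.67-fold higher), and Cd28, the co-stimulatory receptor, at 1464 and 2580.3 (1.76-fold higher). Dok2 and Rasa1, which act against Ras signalling, lay nearest to 0 at 566 and 566 and at 1344 and 1374.

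Several markers of other blood cells were lower in activated cells too, beside 20.6% of all measured genes. Of 7 B cell markers with a probe set, 4 were lower and none higher, with a summed intensity of 4757 and 554, Pax5 being under 100 on both arrays. Most of the naive B cell sum came from H2-Aa (2006.9 and 82.99) and Jchain (1767.81 and 45.25), while Cd79a and Ms4a1 did not pass. For 6 myeloid markers the sums were 1166 and 606 (3 lower, and Cd14, Itgam and Cd68 under 100 on both). For 3 NK cell markers they were 1022 and 273 (2 lower, Ncr1 under 100 on both). Most of both NK sums came from Eomes (725 and 215.3), which is not particular to NK cells. For 3 erythroid genes the sums were 7029.8 and 47.9, the naive one nearly all Hbb-b2. Cd4 was under 100 on both arrays (45.1 and 50.5). The 5 genes taken as CD8 T cell markers (Cd8a, Cd8b1, Cd3d, Cd3e and Cd3g) summed to 30419.8 and 23058. They are themselves listed genes, so their sum is no separate measure of cell content. Several listed genes, such as Ptpn6, Csk and Ptprc, are also expressed by other leukocytes. The part of such cells in the ratios was not tested.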

How the data were processed

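Each of the 2 arrays (an Affymetrix mouse whole-genome design) held the pooled RNA of 4 experiments. The authors deposited 1 intensity per probe set, computed with dChip's difference model and scaled by its invariant set method, per the series' design text, with presence calls from GCOS 1.3. Those calls and dChip's confidence bounds were not used here. Mismatch subtraction makes values near background unstable, hence the floor of 100. The fold minimum of 1.4 and difference minimum of 100 follow the design text.

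Symbols came from the platform annotation, and Entrez identifiers of all 49 listed genes matched RefSeq without a change of symbol. Probe sets with several symbols (932) or none (9160) named no gene. The listed genes, roles and pathway list were chosen with earlier results of these data known. Every listed gene is named, and of the further pathway genes up to 4 of the largest ratios each way and the 2 nearest to 0. With 1 array per group no test was made, and precision is limited by that number. Ratios, medians and counts were computed with pandas 2.3.3 and numpy 2.4.6, and loess scaling with statsmodels 0.14.6. The size rule was tested on simulated data. Alternatives changed the fold, difference and floor settings, the scaling, the choice of probe set and the class of the mixed genes.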

Additional observations from a re-analysis of the deposited data

How the results depend on the processing

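No paired analysis was possible because each group held 1 array, and for the same reason no replicate could be left out. The lower direction of the median held under every alternative run, between -0.70 and -0.52 for all listed genes, between -0.87 and -0.62 for positive genes and between -0.63 and -0.44 for brakes. The brakes minus positive difference ranged from 0.10 to 0.29. With a fold minimum of 2, 14 genes were lower (9 positive, 4 brakes, 1 mixed) and 0 higher, in the positive and mixed classes alike, since fewer genes can reach it. A difference minimum of 50 made Vav3 pass, giving 2 higher positive genes, as did counting the mixed genes with positive signalling, which adds Sh2d2a (2 higher). Counted with the brakes, it gave 1 higher brake. With all measured probe sets of a gene combined (median ratio, and the rule applied to their mean), Malt1 and Dgkz no longer passed (0 higher positive genes), and Cblb did (1 higher brake). Quantile normalization added Cd3d, Cd3g and Cd8a to the lower genes, loess scaling Cd8a and Bcl10, and the combined probe sets Cd8a. Ptprc moved from 0.04 to -0.24 under quantile and -0.23 under loess scaling, and Cd5 to -0.02 under quantile normalization. The ratio of Trat1 was -4.06 with a floor of 50 and -2.06 with a floor of 200, because its activated value lies under either. The other scalings moved the median of all genes by under 0.1.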
